A study of Mus musculus with 2 samples.

Results

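Cluster 9 of the authors' deposited cell metadata is a group of endothelial cells, the lining cells of blood vessels, from the growing end of the mouse incisor. Its members were taken as every cell that the metadata assign to cluster 9 of the clustering of all cells, which gave 814 of 23528 cells in 29 clusters. The control library held 349 of them, 3.59% of its 9708 cells (exact Clopper-Pearson 95% interval 3.23% to 3.98%). The Memo1-mutant library held 465, 3.36% of its 13820 cells (3.07% to 3.68%). The series addresses what MEMO1, a cytoplasmic protein linked to cell migration and growth factor signalling, does in ameloblasts, the epithelial cells that lay down and mature enamel. Cervical loop tissue of the lower incisor, with its epithelium and mesenchyme, was dissociated with trypsin and dispase and sequenced on the 10x Genomics 3' platform. One group was a control mouse at P20, whose further alleles the labels do not give. The other was a Memo1;K14CRE mouse of the same age, in which the keratin 14 promoter drives Cre in epithelium, so that endothelium lies outside the cells in which this promoter is known to act. Each group was 1 mouse and 1 library, so no spread between mice is known and no test between them was made. Each interval below covers counting error only.

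Endothelial cells join into tubes through VE-cadherin and PECAM1, answer to VEGF through the receptors KDR and FLT1, and take arterial, capillary or venous identity along the vessel tree, with Notch and SOX17 on the arterial side and the nuclear receptor COUP-TFII (Nr2f2) on the venous side. Venules carry the selectins and adhesion molecules to which leukocytes bind. In the incisor a capillary network lies against the enamel organ and supplies the ameloblasts as they secrete and mature enamel. Many of these capillaries are fenestrated, with diaphragms built from the protein PLVAP.

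The label was checked against Pecam1 (chromosome 11, 106654217 to 106750628, minus strand) and Cdh5, which encodes VE-cadherin (chromosome 8, 104101625 to 104144511, plus strand); gene positions are those of GENCODE M21 on GRCm38. In what follows a level is the counts of a gene scaled to the summed counts of the same cells, in the usual CPM unit. Pecam1 was at 536 CPM in control cells of cluster 9 and 475 CPM in mutant cells, against 5.56 and 7.42 CPM in all cells outside the 3 endothelial clusters. Cdh5 was at 497 and 498 CPM, against 3.61 and 5.66 CPM. Both defining markers were therefore far above the remaining cells in both libraries. The summed level of 23 pan-endothelial genes was 9819 CPM in control and 8843 CPM in mutant cells. It was higher in cluster 8 (17602 and 16119 CPM) and in cluster 15 (14102 and 12790 CPM), while the next cluster in order, cluster 10, held 532 and 622 CPM. Cluster 9 thus ranked the third of all clusters in either library. Across genes, its profile was also closest to these neighbours. Pearson's r of log levels was 0.912 with either neighbour in the control, and 0.920 with cluster 8 and 0.929 with cluster 15 in the mutant. The next cluster reached 0.772 and 0.822. These r values are descriptions over genes that share libraries and depth.

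**Figure D1:**
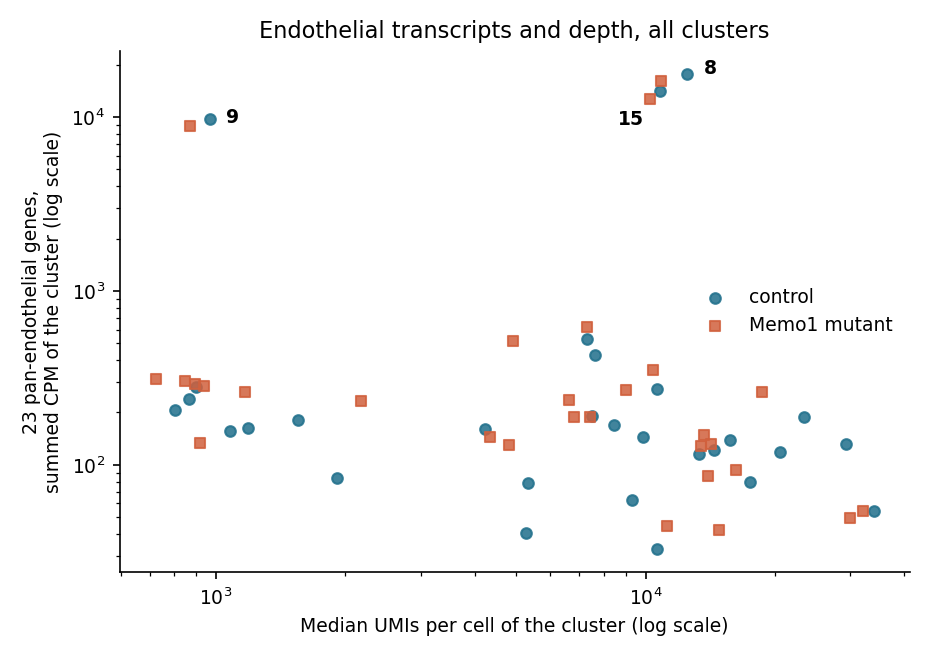
Summed level of 23 pan-endothelial genes (CPM, log axis) against the median UMIs per cell (log axis) for every cluster, with 1 point per cluster and library and no error bars. Clusters 9, 8 and 15 stand apart at the top, and cluster 9, at 9819 and 8843 CPM, lies far to the left of the other two with medians of 966 and 871 UMIs.

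The 15 genes that most set cluster 9 apart from cells outside clusters 8, 9 and 15 were endothelial in both libraries, and 10 of them were on the pan-endothelial list. Plvap, which forms the diaphragms of fenestrae (chromosome 8, 71497765 to 71511752, minus strand), led at 1334 CPM in control cells and 967 CPM in mutant cells, against 6.69 and 8.76 CPM outside. The mutant to control ratio of Plvap was 0.725 (95% interval 0.650 to 0.809). Emcn, an endothelial sialomucin of veins and capillaries, was at 1067 and 973 CPM. Egfl7, a secreted protein of endothelial cells, was at 1388 and 1204 CPM. The tight junction protein Cldn5 was at 553 and 676 CPM, and Cd34, a sialomucin of vascular progenitors and capillaries, at 723 and 565 CPM. Gpihbp1, which carries lipoprotein lipase across capillary endothelium, was at 420 and 351 CPM. The others were Ctla2a, Ly6c1, Cdh5, Ecscr, Flt1, Pecam1, Tm4sf1, Esam and Ptprb. None of the 15 was past 2-fold between the libraries, and neither were most genes. Only 3.13% of 3132 genes measured in cluster 9 were past it. Intervals lay above 1 for Ctla2a, Cldn5 and Tm4sf1, below 1 for Plvap, Egfl7 and Cd34, and held 1 for the others. The genes given with a level here were all higher in cluster 8 than in cluster 9 in both libraries. Plvap, Emcn and Egfl7 were also higher in cluster 15, while Cldn5, Cd34 and Gpihbp1 were lower there. Plvap was at 1756 and 1431 CPM in cluster 8 and at 1727 and 1392 CPM in cluster 15. Because the clustering used these genes, the list is a description of the cluster and no test of it.

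The promoters of these genes are shown because transcription factors of the ETS family, among them ERG and FLI1, bind a GGAAG core and are known regulators of endothelial genes. RefSeq promoters on GRCm38.p6 matched 14 of the 23 pan-endothelial genes; Esam, Pecam1, Mmrn2, Sox18, Sox7, Ramp2, Ptprb, Cdh5 and Ecscr had no entry. The extended letters CAGGAAG, or CTTCCTG on the opposite strand, were in the 250 bases before the start of 6 of these 14 genes (42.9%), namely Erg, Emcn, Egfl7, Robo4, Cd34 and Calcrl, and in 12.1% of 27025 genes with such a window. The letters CCGGAAG were in 0 of 14 and in 7.83% of all genes, and the core GGAAG, which both contain, in 12 of 14 and 66.9%. The windows of 3 leading genes follow, 5′ to 3′ on the strand of the gene, with the matches in capitals. For Emcn (chr3:137340828-137341077, plus strand) the match starts 174 bases before the start, on the opposite strand. For Cd34 (chr1:194938571-194938820, plus strand) it lies at 142 bases, on the opposite strand. For the Egfl7 start shown (chr2:26580833-26581082, plus strand) one match lies at 90 bases on the same strand and one at 49 bases on the opposite strand.
Emcn: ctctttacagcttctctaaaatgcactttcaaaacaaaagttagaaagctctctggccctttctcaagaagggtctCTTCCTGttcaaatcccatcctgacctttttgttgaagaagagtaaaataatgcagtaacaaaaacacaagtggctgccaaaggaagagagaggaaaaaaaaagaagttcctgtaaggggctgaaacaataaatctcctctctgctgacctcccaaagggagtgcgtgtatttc
Cd34: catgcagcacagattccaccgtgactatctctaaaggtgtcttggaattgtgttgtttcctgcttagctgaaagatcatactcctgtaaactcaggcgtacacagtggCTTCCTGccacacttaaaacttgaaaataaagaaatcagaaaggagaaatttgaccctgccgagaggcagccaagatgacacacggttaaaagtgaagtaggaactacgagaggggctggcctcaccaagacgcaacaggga
Egfl7: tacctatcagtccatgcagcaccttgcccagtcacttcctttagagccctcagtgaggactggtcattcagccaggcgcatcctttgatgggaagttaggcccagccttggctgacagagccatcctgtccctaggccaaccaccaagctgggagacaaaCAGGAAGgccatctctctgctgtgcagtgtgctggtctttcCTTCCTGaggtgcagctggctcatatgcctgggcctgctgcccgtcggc
A match is a run of letters and not evidence of binding, and the data hold no measure of it.

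Cells of cluster 9 were shallow. The median cell had 966 UMIs (unique molecular identifiers, each standing for 1 captured RNA molecule) in the control and 871 in the mutant, against 12518 and 10870 in cluster 8 and 10799 and 10243 in cluster 15. The median number of genes was 525 and 502, against 3839 and 3490 in cluster 8. Under 1000 UMIs were 52.4% of control and 59.1% of mutant cells, while in cluster 8 no cell was and in cluster 15 only 1 control cell was. Cluster 9 held 464811 control and 717425 mutant counts in all, and the 5% of its cells with the most UMIs held 23.9% and 32.0% of them. Mitochondrial transcripts made up 12.4% of control and 10.3% of mutant counts, against 5.67% and 5.71% in cluster 8 and 6.25% and 5.83% in cluster 15. Transcripts kept in the nucleus, Malat1 and Neat1 together, made up 0.965% and 1.66%, against 2.90% and 3.25% in cluster 8 and 2.50% and 2.76% in cluster 15. Cluster 9 therefore had the larger mitochondrial and the smaller nuclear share in both libraries. No doublet caller was run, and 139 cell barcodes occur in both libraries, 12 of them in control and 14 in mutant cells of cluster 9 but none in cluster 9 of both.

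Within cluster 9 the endothelial genes varied less with depth than ameloblast or mitochondrial transcripts did. In control cells of up to 700 UMIs the pan-endothelial genes gave 7.97 counts per 1000 UMIs, and 8.65, 10.5 and 10.3 in the deeper bins of up to 1000, up to 2000 and over 2000 UMIs. In mutant cells the same bins gave 9.95, 9.64, 9.54 and 8.02. The lowest value was thus in the shallowest bin of the control and in the deepest bin of the mutant. Transcripts of ameloblast genes took the opposite course in the control, with 13.5 counts per 1000 UMIs in the shallowest bin, then 10.4, 8.36 and 3.08. In the mutant they gave 10.1, 6.54, 5.34 and 4.22. The mitochondrial share went from 17.1% in the shallowest to 7.66% in the deepest control bin, and from 15.6% to 7.66% in the mutant. Ameloblast and mitochondrial transcripts thus took more of the counts in the shallow than in the deep cells of cluster 9, while the endothelial genes stayed within a range of 7.97 to 10.5 per 1000 UMIs. The metadata call none of these cells ameloblast lineage.

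**Figure D2:**
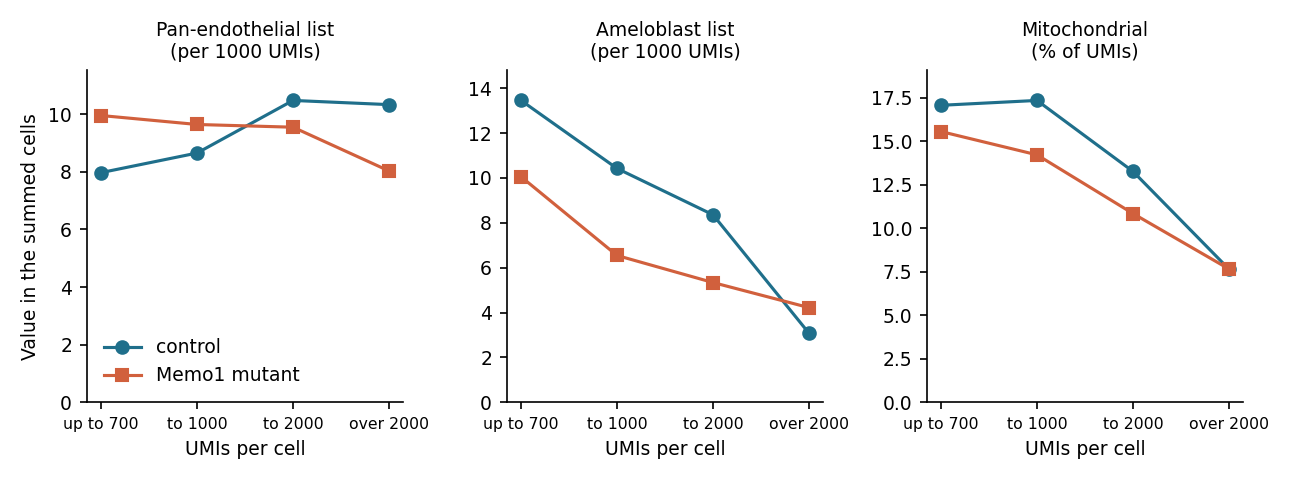
Cells of cluster 9 in 4 bins of UMIs per cell (x axis), control and mutant, with pan-endothelial and ameloblast counts per 1000 UMIs and the mitochondrial percentage on the y axes; each point sums the cells of 1 bin and has no error bar. In the control, ameloblast counts go from 13.5 to 3.08 per 1000 UMIs while pan-endothelial counts stay between 7.97 and 10.5.

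To compare detection between clusters of unequal depth, each cell was thinned to 500 UMIs, which every cell had. Then 94.8% of control cells (92.0% to 96.9%) and 96.6% of mutant cells (94.5% to 98.0%) of cluster 9 kept at least 1 pan-endothelial UMI; before thinning 97.7% and 98.3% had one. In cluster 8 all cells kept one, and in cluster 15 all control and 99.8% of mutant cells did. Cluster 14, ameloblasts that should lack these genes, gave 1.81% and 2.01% after thinning, with medians of 34016 and 32137 UMIs before it. Pan-endothelial transcripts were thus in nearly all cells of cluster 9, far above the share in these deep ameloblasts. The shallow clusters 0, 1 and 17, also with medians below 1000 UMIs, held 206 to 312 CPM of the pan-endothelial genes. Cluster 14 held 54.0 and 54.1 CPM. No thinned share was taken in these shallow clusters. The background in cells as shallow as cluster 9 was therefore not measured, here or for the lists below.

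By arterial genes cluster 9 lay between its neighbours, and by venous genes it was near cluster 8. After thinning, 33.2% of its control cells (28.3% to 38.4%) and 35.1% of its mutant cells (30.7% to 39.6%) had a UMI of any of 14 arterial genes. The share was 59.1% and 63.0% in cluster 8, 17.9% and 25.1% in cluster 15, and 10.9% and 10.0% in the ameloblasts of cluster 14. For 11 venous genes it was 26.6% (22.1% to 31.6%) and 29.0% (24.9% to 33.4%), near cluster 8 at 24.3% and 31.1%, far below cluster 15 at 67.3% and 76.3%, and above cluster 14 at 1.09% and 2.87%. The summed venous level was 738 and 1016 CPM in cluster 9, 861 and 799 CPM in cluster 8, and 2710 and 4095 CPM in cluster 15, so that the control level of cluster 9 was below both neighbours. Before thinning, arterial genes were seen in 49.0% and 55.5% and venous genes in 45.3% and 47.5% of the cells of cluster 9. Within the thinned cells of cluster 9, 26.6% and 26.9% had arterial UMIs only, 20.1% and 20.9% venous UMIs only, 6.59% and 8.17% both, and 46.7% and 44.1% neither. The share with both kinds was 11.2% and 18.8% in cluster 8 and 11.3% and 18.8% in cluster 15. Relative to the endothelial RNA itself cluster 9 lay between its neighbours for both lists. For every 100 pan-endothelial counts there were 10.2 and 14 arterial counts in cluster 9, 15 and 19.9 in cluster 8, and 4.80 and 4.62 in cluster 15. Venous counts per 100 were 7.52 and 11.5 in cluster 9, 4.89 and 4.96 in cluster 8, and 19.2 and 32.0 in cluster 15. By the sums, cluster 9 thus held more venous RNA per endothelial RNA than cluster 8 and more arterial RNA than cluster 15 in both libraries.

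**Figure D3:**
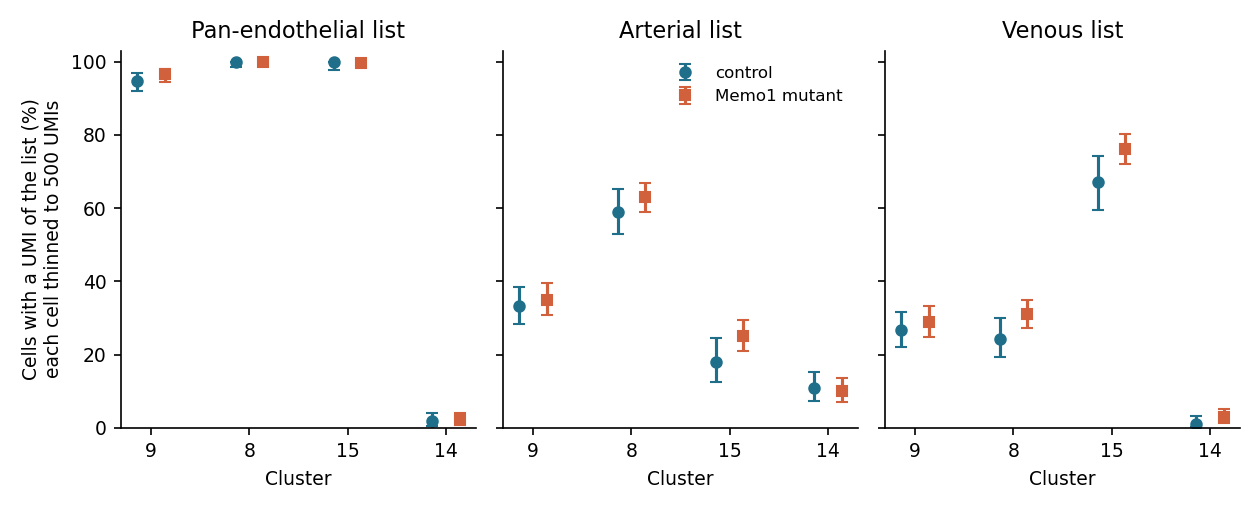
Percentage of cells with at least 1 UMI of the pan-endothelial, arterial or venous genes (y axis) after thinning every cell to 500 UMIs, for clusters 9, 8, 15 and 14 and both libraries; points are shares and error bars exact 95% intervals. Cluster 9 sits between clusters 8 and 15 for arterial genes (33.2% and 35.1%) and level with cluster 8 for venous genes (26.6% and 29.0%).

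Against cluster 8, cluster 9 was lower in pan-endothelial genes, and further lower in vessel wall, VEGF receptor and arterial genes. Of 6009 genes measured (a mean of at least 20 CPM and 50 counts in all), 503 (8.37%) were lower past 2-fold in both libraries and 88 (1.46%) were higher. The median log2 ratio over all measured genes was -0.39 in the control and -0.31 in the mutant, so members are read against that shift. With scaling by TMM factors the split was 127 higher and 274 lower, with median-of-ratios factors 137 and 256, and with totals that leave out the 20 most abundant genes 146 and 398. Of 23 pan-endothelial genes 8 were lower and 0 higher, with medians of -0.86 and -0.95, and their summed level in cluster 9 was 0.558 and 0.549 times that of cluster 8. Of 13 basement membrane genes 10 were lower and 0 higher, with medians of -1.45 and -1.45. Col4a1, the main collagen chain of that membrane, was at 1022 CPM in control and 882 CPM in mutant cells of cluster 9, and at 2944 and 2601 CPM in cluster 8. The proteoglycan Hspg2 was at 185 and 171 CPM against 665 and 592 CPM, and Col18a1, the source of endostatin, at 133 and 107 CPM against 458 and 449 CPM. For each of these 3 genes both libraries of cluster 9 were below both of cluster 8.

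Most measured VEGF and arterial genes were also lower. Of 7 measured VEGF ligands and receptors 4 were lower in cluster 9 than in cluster 8 and 0 higher, with median log2 ratios of -1.43 and -1.64. The co-receptor Nrp1 was at 458 and 392 CPM in cluster 9 and at 1454 and 1313 CPM in cluster 8. The decoy receptor Flt1 was at 514 and 443 CPM against 1487 and 1381 CPM, and the signalling receptor Kdr at 443 and 311 CPM against 1191 and 972 CPM. Of 3 measured angiopoietin and Tie genes 1 was lower past 2-fold in both libraries. It was the phosphatase Ptprb, which acts on the Tie receptors, at 321 and 305 CPM against 886 and 999 CPM. Of 13 measured arterial genes 10 were lower (medians -1.36 and -1.34), among them the Notch ligand Dll4 at 92.5 and 93.4 CPM against 325 and 276 CPM and the ligand Efnb2 at 96.8 and 102 CPM against 306 and 362 CPM. Of 9 measured Notch genes 5 were lower. Junction genes (3 of 14 lower), shear stress genes (2 of 6), BMP and TGF-beta genes (2 of 12) and endothelial transcription factors (5 of 17) had fewer members past 2-fold. None of these groups had a member higher in cluster 9. Over all 6009 measured genes 8.37% were lower and 1.46% higher, so the absence of higher members is no trait of these groups.

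Venous and leukocyte adhesion genes did not share this direction. Of 9 measured venous genes 1 was higher in cluster 9 than in cluster 8 and 0 lower, with median log2 ratios of -0.16 in the control and 0.10 in the mutant. The control median turned positive under TMM (0.08) and median-of-ratios factors (0.09). The 5 measured leukocyte adhesion genes had medians of -0.31 and -0.04, the latter positive under the same factors (0.08 and 0.11). The higher gene was Selp, which encodes P-selectin (chromosome 1, 164115264 to 164150026, plus strand), at 23.7 and 124 CPM against 7.71 and 3.14 CPM. Of the 88 genes higher than in cluster 8, 75 were at a still higher level in cells outside the endothelial clusters in both libraries. The same share over all 6009 measured genes was not counted. The other 13 included Ang, at 47.3 and 32.1 CPM in cluster 9 against 19.1 and 26.7 CPM outside. The 75 included enamel matrix, keratin and matrix genes. Amelx, the main enamel matrix protein, was at 5882 and 4629 CPM in cluster 9, 981 and 818 CPM in cluster 8, and 64680 and 47878 CPM outside. The fibroblast proteoglycan Lum was at 118 and 315 CPM against 16.7 and 46.0 CPM in cluster 8, and the basal keratin Krt5 at 140 and 57.1 CPM against 15.4 and 8.22 CPM. Of 6 measured fibroblast genes 6, of 4 ameloblast genes 3 and of 4 enamel organ epithelium genes 3 were higher. The whole ameloblast list summed to 7526 and 5510 CPM in cluster 9. In the shallow clusters 0, 1 and 17 it summed to 8608 and 8021, 8664 and 5507, and 8301 and 5322 CPM. This level was thus not particular to cluster 9. The part of RNA from other cells in these differences was not tested.

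Against cluster 15 the order of arterial and venous genes turned round. Of 5966 measured genes 322 (5.4%) were lower in cluster 9 past 2-fold in both libraries and 102 (1.71%) higher, around medians of -0.27 and -0.15. Under TMM factors these were 230 and 128, under median-of-ratios factors 226 and 131, and without the 20 most abundant genes 290 and 157. Of the 102 higher genes, 73 were at a still higher level outside the endothelial clusters in both libraries, and 29 were not. The same share over all 5966 measured genes was not counted. Of 23 pan-endothelial genes 4 were lower and 0 higher, with medians of -0.56 and -0.64. Of 11 measured venous genes 9 were lower (medians -2.15 and -2.04), and of 7 leukocyte adhesion genes 5 were lower (medians -2.04 and -2.02). Vwf, the von Willebrand factor of clotting (chromosome 6, 125546774 to 125686679, plus strand), was at 94.7 and 123 CPM in cluster 9 and at 705 and 741 CPM in cluster 15. The venous regulator Nr2f2 was at 47.3 and 55.8 CPM against 210 and 293 CPM, and the leukocyte ligand Vcam1 at 66.7 and 162 CPM against 275 and 413 CPM. Selp was at 220 and 672 CPM in cluster 15. The semaphorin and VEGF co-receptor Nrp2 was at 49.5 and 80.8 CPM against 293 and 397 CPM.

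Of 13 measured arterial genes 6 were higher in cluster 9 than in cluster 15 and 0 lower, with medians of 0.79 and 0.93. The gap junction protein Gja4 (chromosome 4, 127311421 to 127314039, minus strand) was at 129 and 184 CPM against 24.1 and 9.10 CPM. Its partner Gja5 was at 81.8 and 73.9 CPM against 13.1 and 4.47 CPM, and the secreted semaphorin Sema3g at 64.5 and 59.9 CPM against 10.6 and 5.29 CPM. For these 3 genes both libraries of cluster 9 lay above both of cluster 15 and below both of cluster 8. Hey1, Unc5b and Stmn2 were the others. Esm1, a proteoglycan of sprouting tip cells, was at 155 and 174 CPM against 27.1 and 18.5 CPM in cluster 15 and 445 and 308 CPM in cluster 8. Of 6 measured capillary genes 2 were higher than in cluster 15, Fabp4 (36.6 and 37.6 CPM against 11.4 and 14.6 CPM) and Cd300lg (215 and 158 CPM against 90.9 and 44.7 CPM). Of 6 measured cell cycle genes 5 were lower, with Top2a, which untangles DNA for division, at 15.1 and 15.3 CPM against 190 and 62.5 CPM. None of 7 lymphatic genes was measured between the libraries of cluster 9, where the list held 34 control and 29 mutant counts (73.1 and 40.4 CPM, against 101 and 92.9 CPM in cluster 8 and 88.3 and 125 CPM in cluster 15). Flt4, the VEGFR3 receptor, which blood capillaries can also carry, gave 27 and 15 of these counts. Prox1, the lymphatic regulator, and Lyve1 had 3 control counts each and 3 and 8 mutant counts, and Ccl21a and Mmrn1 had 0 in both libraries.

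**Figure D4:**
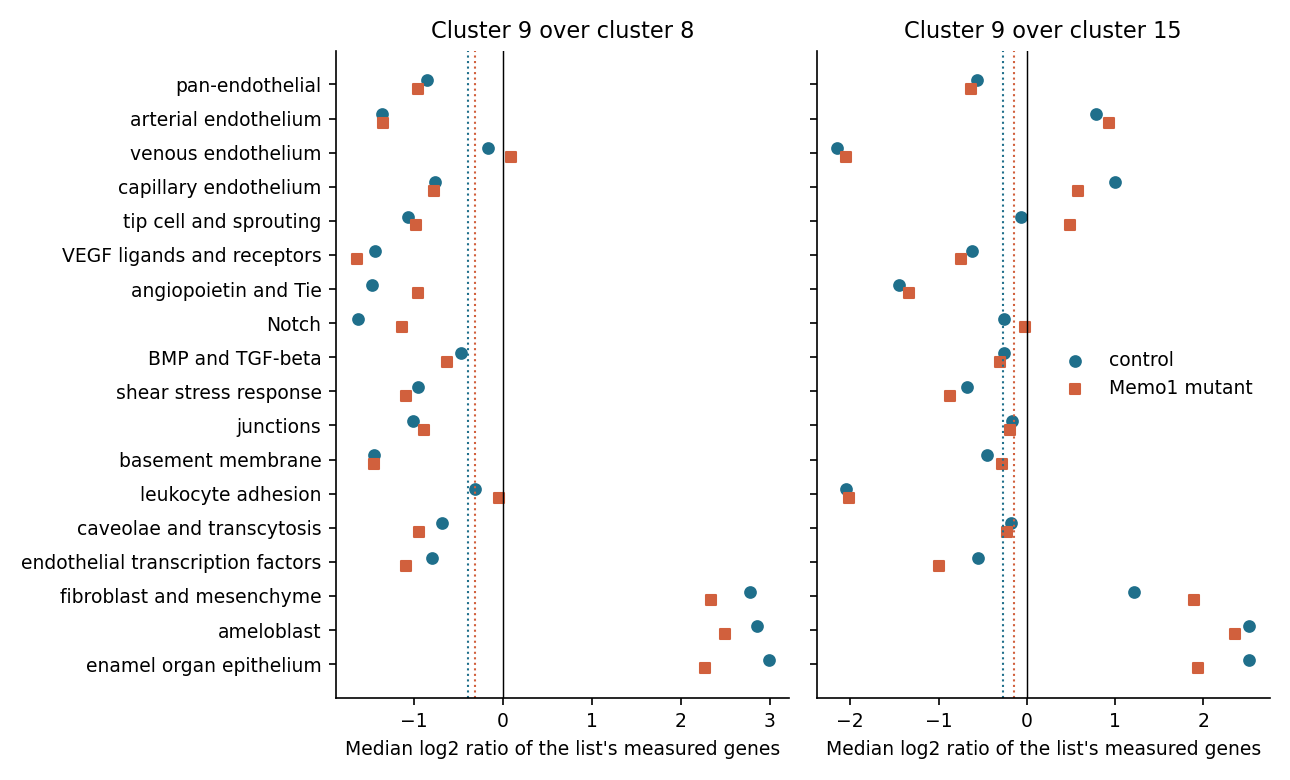
Median log2 ratio (x axis) of 18 gene lists (y axis) for cluster 9 over cluster 8 and over cluster 15 in each library; each point is a median over the measured genes of a list, with no error bar, and dotted lines mark the median of all measured genes. Arterial genes lie at -1.36 and -1.34 against cluster 8 and at 0.79 and 0.93 against cluster 15, and venous genes at -2.15 and -2.04 against cluster 15.

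Of 5724 genes measured against both neighbours, 120 were lower past 2-fold than both in both libraries and 44 higher than both. Of the 44, only the mitochondrial gene mt-Cytb was also above its level in cells outside the endothelial clusters. It was at 18169 CPM in control and 14593 CPM in mutant cells of cluster 9. The share of all 5724 genes above their level outside was not counted. The 120 lower genes included Ptprb, the BMP receptor Bmpr2 (133 and 132 CPM), the transcription factor Mef2c (181 and 201 CPM), the nuclear RNA Neat1 (43.0 and 62.7 CPM), the tight junction scaffold Tjp1 (58.1 and 62.7 CPM) and the efflux pump Abcb1a (45.2 and 62.7 CPM). They were long genes. The median distance from start to end of a gene in GENCODE M21 was 94.9 kb (quartiles 40.1 to 172 kb) for 116 of the 120 with 1 position, against 23.4 kb for 5561 of the 5724 measured genes and 12.5 kb for 43 of the 44 higher genes. The nuclear and mitochondrial shares given above differed between the clusters in the same libraries, and their part in this difference was not tested.

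Between the control and the mutant the share of cells in cluster 9 was close when taken over all cells, and lower in the mutant when taken over endothelial cells. The mutant share was 0.936 times the control share over all cells (0.813 to 1.08). Among the 3 endothelial clusters cluster 9 made up 45.0% of 776 control cells (41.4% to 48.6%) and 30.8% of 1508 mutant cells (28.5% to 33.2%), a ratio of 0.686. Clusters 8 and 15 were larger in the mutant, with 592 and 451 cells against 259 and 168. Among endothelial cells of at least 1000 UMIs, cluster 9 was 28% of 592 control and 15.4% of 1233 mutant cells. The files hold no cell of 500 UMIs or fewer, and a minimum on UMIs bears on a cluster with medians of 966 and 871 more than on its neighbours. With 1 mouse each and separate dissociations, the genotype and the library cannot be told apart.

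Gene levels in cluster 9 were mostly close between the libraries. Of 3132 measured genes 98 (3.13%) were past 2-fold, 82 (2.62%) higher in the mutant and 16 (0.511%) lower, with a median log2 ratio of 0.07. The direction of this split differed between settings. With cells thinned to 1000 UMIs 17 of 917 measured genes were past 2-fold, 6 higher in the mutant and 11 lower, so that most were lower, and 6 of the 17 were among the 98. Without the 5% of cells with the most UMIs 39 of 2229 were, 23 higher and 16 lower, and with the mean of per-cell CPM 74 were higher and 31 lower. Of 21 measured pan-endothelial genes 1 was higher, 0 were lower, and the median was -0.11. Pecam1 had a mutant to control ratio of 0.887 (0.751 to 1.05) and Cdh5 of 1.00 (0.846 to 1.19). The higher gene was Tek, the receptor for angiopoietins, at 32.3 CPM in control and 79.5 CPM in mutant cells, a ratio of 2.46 (1.38 to 4.68). The VEGF receptor Kdr was at 443 and 311 CPM (0.701, 0.578 to 0.852) and the TGF-beta co-receptor Eng at 764 and 516 CPM (0.675, 0.582 to 0.783). Apart from Tek, the measured pan-endothelial genes were thus within 2-fold, as were most of all 3132 measured genes. Of the 21, 3 had intervals above 1 and 7 below, against 336 and 162 of all 3132. The whole pan-endothelial list summed to a mutant to control ratio of 0.901 (0.867 to 0.936).

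P-selectin, an adhesion molecule of venules, was among the 12 genes ranked furthest above the control level in the mutant library. Its gene Selp was at 23.7 CPM in the control (11 counts in 9 cells) and 124 CPM in the mutant (89 counts in 30 cells), 5.24-fold higher (2.79 to 10.9). One mutant cell held 27.0% of these counts, and without the 5% deepest cells the ratio was 5.29. In cluster 15 Selp was also higher in the mutant, 3.05-fold (2.78 to 3.35), and in cluster 8, where it was near 0, it was lower, at 7.71 and 3.14 CPM. Vcam1, which was not among the 12, was at 66.7 and 162 CPM, 2.42-fold higher (1.62 to 3.73), with a ratio of 1.13 in cluster 8 and a level of 275 and 413 CPM in cluster 15. These were the members past 2-fold among 4 measured leukocyte adhesion genes (median 0.62, or 0.97 without the 5% deepest cells), and Icam1 and Icam2 had ratios of 0.833 (0.494 to 1.42) and 0.978 (0.764 to 1.26). Both also count among the 8 measured venous genes, where 2 were higher and 0 lower (median 0.36), with Vwf at a ratio of 1.30 (0.892 to 1.91) and Nr2f2 at 1.18 (0.683 to 2.08). Selp and Vcam1 were thus past 2-fold, and the other leukocyte adhesion and venous genes named here were not. Of all 3132 measured genes 2.62% were higher past 2-fold, and these lists are too small to set against that share.

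Arterial genes held 2 members past 2-fold of 11 measured, both higher (median 0.31, but 0.03 without the 5% deepest cells and -0.02 with the mean of per-cell CPM). Over all 3132 measured genes the share higher past 2-fold was 2.62%. Hey1, a target of Notch, was at 23.7 CPM in control and 66.9 CPM in mutant cells (2.83, 1.45 to 6.04), and Stmn2, a regulator of microtubules, at 30.1 and 62.7 CPM (2.08, 1.12 to 4.11). The ratio of Hey1 was 1.17 in cluster 8 and 1.19 in cluster 15. Dll4 was at 92.5 and 93.4 CPM, a ratio of 1.01 (0.678 to 1.52), and Gja4 at 129 and 184 CPM (1.43, 1.04 to 1.97). The vasoconstrictor Edn1 was at 120 and 223 CPM (1.85, 1.36 to 2.56) with 31.9% of the mutant counts in 1 cell, and Klf2, which answers to blood flow, at 635 and 861 CPM (1.36, 1.18 to 1.56). Genes of the immediate early response, which tissue dissociation can also induce, had a median of 0.34 over 14 measured genes with none past 2-fold. Of the 14, 8 had intervals above 1 and 1 below, against 336 and 162 of all 3132. Their list summed to a ratio of 1.17 (1.12 to 1.23), and Fos was at 1134 and 1464 CPM. Nr4a2, which was not on this list, was at 15.1 and 82.2 CPM (5.46, 2.49 to 14.2). The ratio of Nr4a2 was 1.34 in cluster 8 and 1.64 in cluster 15.

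Among capillary and matrix genes, several members were below the control level in the mutant library, most of them by less than 2-fold. None of 5 measured capillary genes was past 2-fold, and their median of -0.39 was 0.03 without the 5% deepest cells. Of the 5, 3 had intervals below 1 and 0 above, and the whole list summed to a ratio of 0.733 (0.674 to 0.797). Rgcc, which is induced by hypoxia and complement in endothelium (chromosome 14, 79288756 to 79301645, minus strand), was at 589 CPM in control and 321 CPM in mutant cells, 0.544 times the control level (0.454 to 0.650). Its ratio was 0.666 in cluster 8 and 0.672 in cluster 15. The transcription factor Sox18 (chromosome 2, 181669836 to 181671640, minus strand) was at 353 and 205 CPM, a ratio of 0.581 (0.462 to 0.730), with 0.848 in cluster 8 and 0.631 in cluster 15. Both genes were below the control level in all 3 endothelial clusters. The cholesterol exporter Abcg1 was at 88.2 and 36.2 CPM (0.411, 0.241 to 0.688). Of 12 measured basement membrane genes 1 was lower past 2-fold, Col15a1 at 90.4 and 41.8 CPM (0.463, 0.280 to 0.757), and the median was -0.30, or -0.05 with the mean of per-cell CPM. Of the 12, 5 had intervals below 1 and 0 above, and the list summed to a ratio of 0.881 (0.840 to 0.923). Over all 3132 measured genes 162 had intervals below 1 and 336 above. The hypoxia-responsive factor Epas1 was at 566 and 372 CPM (0.658, 0.553 to 0.783).

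Several of the genes furthest above the control level are known from mesenchyme, and for most of those given here a few deep cells carried much of the counts. Lypd1 (chromosome 1, 125867622 to 125913101, minus strand) had 2 control and 77 mutant counts, 4.30 and 107 CPM, a ratio of 24.9 with an interval of 6.67 to 210, and 3.98 without the 5% deepest cells. One mutant cell held 24.7% of its counts. Lypd1 was also higher in the mutant in cluster 15, at 1.27 and 21.5 CPM (17.0, 5.68 to 83.3), and was at 58.8 and 121 CPM outside the endothelial clusters. The growth factor Ptn was at 293 and 926 CPM, 3.16-fold higher (2.63 to 3.83), with 22.4% of the mutant counts in 1 cell and a ratio of 1.40 without the deepest cells. Its ratio was 0.738 in cluster 8 and 1.00 in cluster 15. The Wnt inhibitor Sfrp2, at 19.4 and 131 CPM (6.77, 3.42 to 15.3), was spread over 63 mutant cells and stood at 7.24 without the deepest cells. Sfrp2 was higher in the mutant in cluster 8 too, at 4.88 and 172 CPM (35.2, 22.4 to 58.6), and outside the endothelial clusters, at 193 and 1247 CPM, while its ratio was 1.11 in cluster 15. Omd, a proteoglycan of bone and dental mesenchyme, was at 15.1 and 107 CPM and went from a ratio of 7.13 to 1.24, and the secreted protein Scube1 from 7.94 to 1.09. Mfap4, Vcan, Nr4a2, Dclk1, Fryl and Dlx6os1 completed the 12 named by rank. Of 5 measured fibroblast genes 3 were higher, against 2.62% of all 3132 measured genes, with a median of 1.07, or 0.54 without the deepest cells. The whole fibroblast list of 8 genes summed in cluster 9 to 921 CPM in control and 1716 CPM in mutant cells. It was at 133 and 335 CPM in cluster 8 and, the other way round, at 545 and 422 CPM in cluster 15. How far RNA of other cells enters these ratios was not tested.

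Among the genes furthest below the control level were several of enamel epithelium, which were also lower in clusters 8 and 15 and outside the endothelial clusters. Amtn, an enamel matrix protein of maturation, had 52 control counts in 45 cells and 1 mutant count, 112 and 1.39 CPM, a ratio of 0.0125 (0.00031 to 0.0725). Its ratio was 0.157 in cluster 8 and 0.0861 in cluster 15, and its level outside the endothelial clusters was 598 and 52.5 CPM. Ambn was at 1054 and 577 CPM (0.547, 0.479 to 0.625), or 0.971 among cells that had at least 1000 UMIs, 500 genes and at most 10% mitochondrial counts. The ratio of Ambn was 0.705 in cluster 8 and 0.578 in cluster 15. The keratins Krt14 and Krt5 were at 142 and 57.1 CPM and at 140 and 57.1 CPM. Their ratios were 0.584 and 0.533 in cluster 8 and 0.494 and 0.383 in cluster 15. Outside the endothelial clusters the control and mutant levels were 7420 and 4129 CPM for Ambn, 781 and 370 CPM for Krt14, and 496 and 201 CPM for Krt5. Of 3 measured enamel organ epithelium genes 2 were lower (median -1.29, or -0.64 without the 5% deepest cells), and their whole list summed to 512 and 234 CPM. Gm10709 went from 480 to 4.18 CPM, and its ratio was 0.00872 in cluster 9, 0.00572 in cluster 8 and 0.00434 in cluster 15. Gm8797 and Gm42418 were named too, the latter at 2.80% of control and 1.64% of mutant counts. Outside the endothelial clusters Gm10709 was at 386 and 1.46 CPM, Gm8797 at 172 and 26.4 CPM, and Gm42418 at 11769 and 9983 CPM. All 3 were thus lower in the mutant library there too. The antigen-presenting gene H2-Aa was at 123 and 51.6 CPM. Rgs5, a pericyte gene, was at 140 and 71.1 CPM with 53.8% of the control counts in 1 cell. All 4 measured haemoglobin genes were lower (median -6.38), where 1 control cell held 89.7% of the haemoglobin counts of the cluster and 3 control cells had over 5% haemoglobin; without these the median was -0.96.

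**Figure D5:**
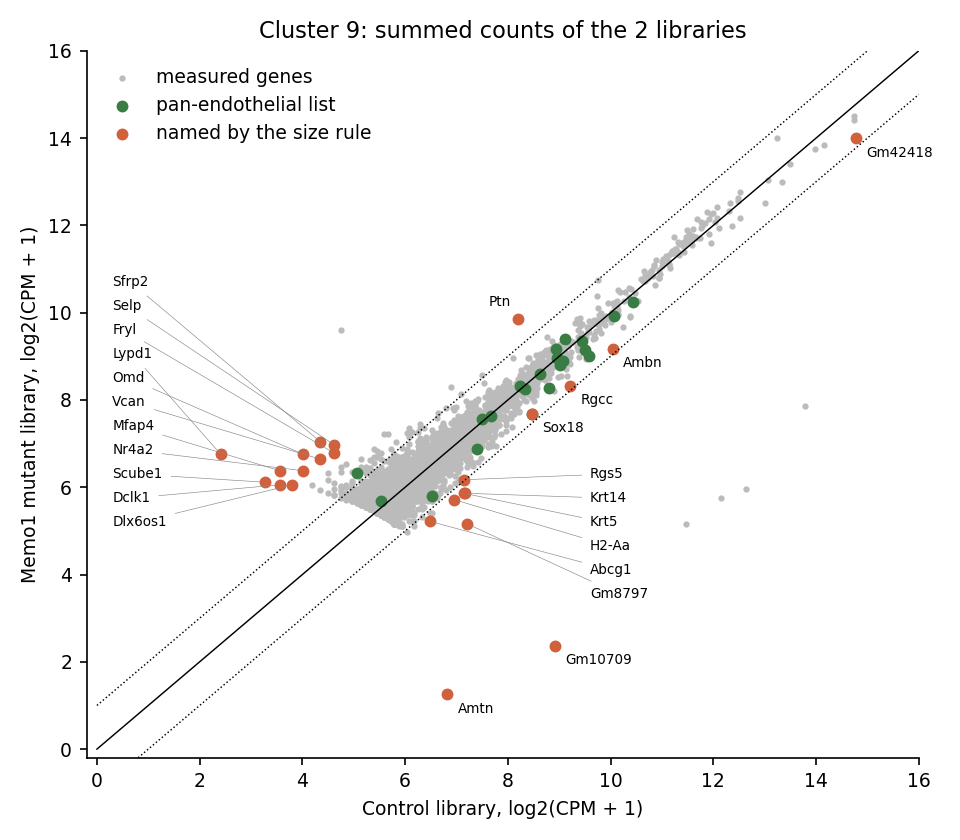
Level of each of 3132 measured genes in mutant cells of cluster 9 (y axis) against control cells (x axis), both as log2(CPM + 1), with dotted lines at 2-fold; each point is 1 gene with no error bar. Pan-endothelial genes lie along the diagonal (median log2 ratio -0.11), and Selp (23.7 and 124 CPM) and Lypd1 (4.30 and 107 CPM) are above the upper line; the grey points farthest below are the haemoglobin genes, and the grey point farthest above is a sex-linked gene that was not ranked.

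Memo1 itself (chromosome 17, 74199036 to 74295521, minus strand) gave 6 control and 12 mutant counts in cluster 9, 12.9 and 16.7 CPM, too few to be measured. The labels do not say which part of the gene is deleted, so these counts do not check the deletion.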

How the data were processed

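Single-cell RNA was measured in 1 control and 1 Memo1;K14CRE library. The authors deposited a matrix of whole-number UMI counts and, for each cell, metadata with its cluster number; Cell Ranger, Seurat 3 and mm10 are named in the submitters' processing notes, and the Cell Ranger version, the annotation and any doublet removal are not given in the sources used here. The deposited counts were added up by cluster and library and scaled to CPM of each sum. Ratios have exact conditional Poisson 95% intervals and shares exact Clopper-Pearson 95% intervals, for counting error only. A gene was measured at a mean of at least 20 CPM and 50 counts, and past 2-fold where its ratio was 2 or more, or its inverse was, in both libraries when clusters were compared. No test was run, since each group is 1 library. Lists (41, with 333 genes, 4 of them not in the file) need 3 measured members for a median.

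Genes were named by rule. Between libraries these were the 12 each way whose nearer interval bound lay farthest from 1. Against clusters 8 and 15 they were the 12 each way past 2-fold in both libraries, ranked by the smaller bound. Leading genes were the 15 of at least 50 CPM with the largest smaller ratio to non-endothelial cells after adding 10 CPM. The ranking left out sex-linked, haemoglobin, ribosomal protein and mitochondrial genes. Memo1, Pecam1, Cdh5 and list members could be named besides. Some genes that the rules select are not reported here. mt-Cytb, Neat1 and other genes beyond these rules were chosen after their values were seen. Cluster members and lists were chosen with earlier results of these data known. Alternatives changed the scaling (TMM factors of edgeR 4.0.16 in R 4.3.3, median of ratios, totals without the 20 most abundant genes), the filters, the cells kept and the depth. The code was tested on simulated data and ran in Python 3.11.15 with NumPy 2.4.6, SciPy 1.17.1, pandas 2.3.3 and matplotlib 3.10.9. Depth was 464811 and 717425 counts in cluster 9. Of 19626 genes in the file, 18850 had 1 position in GENCODE M21.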

Additional observations from a re-analysis of the deposited data

Results flagged for a closer look

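In the 5 genes given here cluster 9 was past 2-fold above a neighbouring cluster in one library and past 2-fold below it in the other. The difference between the libraries was not tested. The 4 haemoglobin genes were above cluster 8 in the control and below it in the mutant. Hba-a1 had a ratio of cluster 9 over cluster 8 of 37.2 in the control and 0.0503 in the mutant, Hba-a2 of 34.9 and 0.0596, Hbb-bs of 16.3 and 0.0742, and Hbb-bt of 166.8 and 0.0929. In the control, 1 cell held 90.3%, 91.4%, 87.6% and 95.8% of their counts in cluster 9. Against cluster 15, Lrp1, an endocytic receptor, had ratios of 0.456 in the control (6 counts, interval 0.162 to 1.05) and 2.06 in the mutant (22 counts, interval 1.23 to 3.31).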

How the results depend on the processing

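The count of genes past 2-fold between the libraries, 98, was 84 to 88 under the 3 other scalings, 39 without the 5% deepest cells, 17 with cells thinned to 1000 UMIs, 526 with no minimum CPM and 30 with at least 50 CPM and 100 counts. Against cluster 8 the count of 591 was 393 under median-of-ratios factors, 1613 with no minimum CPM and 331 with the higher minimum. Against cluster 15 the count of 424 was 1314 and 198 under these filters. The 3 lists with a median past 2-fold became 1 with thinned cells, with the mean of per-cell CPM, without the 5% deepest cells and without cells in which markers of other types took over 1% of counts. The mutant to control ratio of the share of cells, 0.936, was 0.686 among clusters 8, 9 and 15 and 0.778 among cells outside the ameloblast lineage. The causes were not tested. The 24 genes ranked between the libraries gave 208 values under 9 alternatives, of which 208 lay on the main value's side of 1 and 160 within its counting interval. Among 242 list medians 165 stayed within the spread of the main value, 77 moved, and none past 2-fold changed sign, while the pan-endothelial median of -0.11 was 0.05 without the 5% deepest cells. Leaving out cells over 5% haemoglobin was added after the data were seen. No paired analysis was possible because each group is 1 library. At these depths a gene under 20 CPM is not measured.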
